A study of Rattus norvegicus with 20 samples.

Results

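The leukotriene and lipoxygenase pathway was followed through 9 genes in rat whole blood: Alox5, Alox5ap, Lta4h, Ltc4s, Ltb4r, Alox12, Alox15, Pla2g7 and Pla2g4a. They were the genes of that list whose name was carried by a probe of the array, and each had 1 probe. Of the 9 genes, 8 were well above background on at least 4 arrays and were tested among 15260 genes (30367 probes); the remaining gene, Pla2g4a, was not tested. The study measured RNA from the blood of 20 Wistar rats, 1 array per rat and 4 rats in each of 5 groups. Sham rats had a sham operation. In the other 4 groups reflux esophagitis was induced by surgery, and these rats were left untreated or received STW5 at 0.5 ml/kg, STW5 at 2 ml/kg or omeprazole at 30 mg/kg by pretreatment of 7 days and a further 10 days from surgery on. STW5 is a herbal preparation used in functional gut disease, and omeprazole blocks the gastric proton pump. The labels give no age of the rats and do not say whether untreated and sham rats received a vehicle.

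Leukotrienes are lipid mediators that blood leukocytes make from arachidonic acid. A phospholipase A2 frees the fatty acid from membranes, 5-lipoxygenase (Alox5) with its activating protein (Alox5ap) turns it into leukotriene A4, and this is converted to the neutrophil attractant leukotriene B4 by Lta4h or to leukotriene C4 by Ltc4s. Other lipoxygenases oxidise the same fatty acid elsewhere: Alox12 is the platelet-type enzyme, and Alox15 is found in maturing red cells, where it takes part in the breakdown of mitochondria, and in some leukocytes. Pla2g7 encodes the plasma enzyme that degrades platelet-activating factor (PAF).

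The 60-base probes of Alox5, Alox5ap and Lta4h are shown because the results turn on these 3 steps of leukotriene B4 synthesis, and that of Alox15 because its levels followed another course.
Alox5: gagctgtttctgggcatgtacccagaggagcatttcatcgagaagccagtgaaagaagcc
Alox5ap: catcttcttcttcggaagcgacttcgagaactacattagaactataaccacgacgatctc
Lta4h: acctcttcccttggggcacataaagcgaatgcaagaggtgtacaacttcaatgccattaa
Alox15: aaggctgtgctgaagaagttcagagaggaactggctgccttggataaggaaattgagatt
In the rn4 coordinates of the scanner files the Alox5 probe lies at chr4:152610831-152612409 on the minus strand, a span of 1579 bases for 60 bases of probe, so that it crosses an intron. The Alox5ap probe lies at chr12:6246233-6246292 (minus strand), the Lta4h probe at chr7:30512501-30512560 (plus strand) and the Alox15 probe at chr10:57186202-57186261 (minus strand). The longest run that each of these 4 probes shared with a probe of another gene was 13 bases. Lta4h was printed in 10 spots on each array and the other members in 2.

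Levels are log2 of the probe's intensity relative to the 75th percentile of its array, and a level of one probe cannot be set against that of another. Over the tested genes the levels of untreated array 1 correlated at 0.984 on average with the sham arrays and at 0.920 with the other untreated arrays, and its nearest array was sham array 3 (r = 0.992). The members' changes that involve the untreated group are therefore given without that array too, where leaving it out changed a call or moved a printed change by more than 1.5 times. It was chosen for its likeness to sham in these same data, so leaving it out tends to widen the difference from sham. Adjusted p-values without it, here and for treated against untreated rats, are descriptive only. The values of the wider pathway rest on all 20 arrays. Slide 1 carried the sham and untreated arrays, slide 2 both STW5 doses and slide 3 omeprazole. When a treated group is set against sham or untreated rats, the slide differs as well, and its part cannot be told apart from that of treatment. All comparisons with sham share the same 4 sham arrays, and all comparisons with untreated rats share the 4 untreated arrays. In whole blood, fewer cells of a type and less RNA per cell cannot be told apart.

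Alox5, which oxidises arachidonic acid to leukotriene A4, had its lowest levels in sham blood. The 4 sham arrays lay at -2.78, -1.70, -2.02 and -2.30, and the untreated arrays at -2.29, 0.06, -0.77 and 0.65. Untreated array 1 thus lay among the sham arrays and the other 3 above all of them. Levels under STW5 at 0.5 ml/kg were -0.34, -0.91, -0.26 and -1.08, under STW5 at 2 ml/kg -1.15, -0.99, -1.27 and -1.78, and under omeprazole -0.66, -0.27, -1.39 and 0.13. The low STW5 dose and omeprazole lay wholly above sham, whereas array 4 of the high dose (-1.78) lay below the highest sham array. The order of the group means was omeprazole (-0.54 ± 0.65, SD, n = 4), untreated (-0.59 ± 1.27), STW5 at 0.5 ml/kg (-0.65 ± 0.41), STW5 at 2 ml/kg (-1.30 ± 0.34) and sham (-2.20 ± 0.46). The first 3 means differed by less than the spread within any of those groups.

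Alox5ap, the membrane protein that presents arachidonic acid to 5-lipoxygenase, was also lowest in sham. Its sham levels were 0.27, 0.85, 0.36 and 0.59, and its untreated levels 0.47, 3.22, 1.56 and 2.07. Array 1 was again the untreated array within the sham range. STW5 at 0.5 ml/kg gave 2.02, 1.98, 2.74 and 1.30, STW5 at 2 ml/kg 1.56, 1.55, 1.42 and 0.26, and omeprazole 1.70, 2.35, 1.29 and 2.66. Omeprazole and the low STW5 dose did not overlap with sham, and at the high dose array 4 (0.26) lay below every sham array.

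Lta4h, the hydrolase that makes leukotriene B4, had sham levels of -0.52, -0.16, -0.38 and -0.42. Its untreated levels were -0.14, 0.68, -0.31 and 1.98, so that array 4 stood far above the rest and arrays 1 and 3 were near sham. Under STW5 at 0.5 ml/kg the levels were 0.64, 0.41, 0.57 and 0.03, all above sham. Under STW5 at 2 ml/kg they were -0.20, -0.41, -0.25 and -0.71, within the sham range on arrays 1 to 3 and below it on array 4. Under omeprazole they were 0.35, 0.38, -0.13 and 0.47, all above the highest sham array, array 3 only just.

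Ltb4r encodes the high-affinity receptor for leukotriene B4 on neutrophils. Its probe was dim: it was well above background on 1 of 4 sham arrays, 3 untreated arrays, 4 arrays of STW5 at 0.5 ml/kg, 2 of STW5 at 2 ml/kg and 4 omeprazole arrays. Levels in sham were -3.74, -2.65, -3.24 and -3.62 and in untreated blood -2.68, -0.59, -2.41 and -3.10, with array 2 alone far above the others. The STW5 levels were -2.61, -2.46, -2.58 and -3.38 at 0.5 ml/kg and -3.16, -2.23, -2.83 and -3.97 at 2 ml/kg, and those of omeprazole -1.84, -2.26, -2.76 and -2.13. Every group overlapped with sham.

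**Figure D1:**
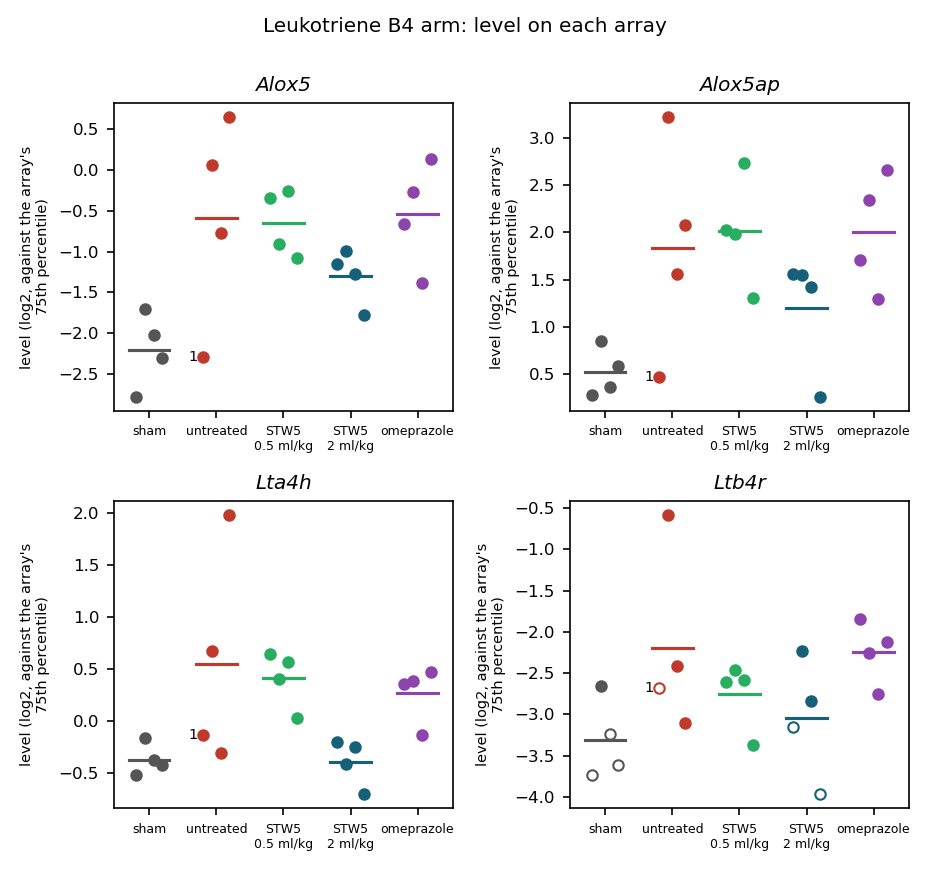
Levels of Alox5, Alox5ap, Lta4h and Ltb4r on each of the 20 arrays (y axis, log2 against the array's 75th percentile) by group (x axis); horizontal lines are group means, open points were not well above background, and "1" marks untreated array 1. For Alox5 and Alox5ap that array lies within the sham range while the other 3 untreated arrays lie above it, and for Lta4h the high STW5 dose lies at the sham level.

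Pla2g7, the PAF acetylhydrolase, had the largest change against sham of the 8 tested members in each of the 3 treated groups. Sham levels were 1.85, 2.30, 1.76 and 2.12 (mean 2.01 ± 0.25, SD, n = 4) and untreated levels 1.96, 3.53, 4.40 and 3.11 (3.25 ± 1.02). The levels were 3.39, 3.78, 4.49 and 3.75 under STW5 at 0.5 ml/kg (3.85 ± 0.46), 3.61, 3.91, 3.60 and 2.63 under STW5 at 2 ml/kg (3.44 ± 0.56) and 3.77, 4.02, 2.95 and 4.28 under omeprazole (3.75 ± 0.58). All 12 arrays of treated rats lay above all 4 sham arrays, and of the untreated arrays only array 1 did not. The means of the 4 operated groups differed from each other by less than 1 SD of the untreated group.

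Alox15, the lipoxygenase of maturing red cells, ran the other way. Sham levels were 9.02, 8.96, 8.07 and 8.83 (mean 8.72 ± 0.44, SD, n = 4). Untreated levels were 8.13, 9.58, 5.05 and 7.57 (7.58 ± 1.89), the widest spread of any member in any group: array 2 was the highest and array 3 the lowest of all 20 arrays. STW5 gave 8.26, 6.42, 7.33 and 6.69 at 0.5 ml/kg and 9.16, 9.20, 7.79 and 7.40 at 2 ml/kg, and omeprazole 8.89, 7.86, 7.87 and 6.58. Every operated group overlapped with sham: at 2 ml/kg arrays 1 and 2 lay above all sham arrays and arrays 3 and 4 below them.

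Alox12, the platelet-type lipoxygenase, showed no order of groups beyond its spread: group means ran from 2.05 ± 0.61 in sham to 2.54 ± 0.82 in untreated blood (SD, n = 4), with single arrays between 1.30 and 3.68. Ltc4s, which makes leukotriene C4 and is found in eosinophils, mast cells and platelets, was dim, with 18 of 20 arrays well above background. Its group means ran from -3.20 ± 0.75 in untreated blood to -2.32 ± 0.52 under STW5 at 2 ml/kg, and all groups overlapped. Pla2g4a, the cytosolic phospholipase A2 that releases arachidonic acid, was well above background only on untreated array 4 (-2.10) and on arrays 2 and 3 of STW5 at 0.5 ml/kg (-3.67 and -3.03). On the other 3 untreated arrays and on all sham arrays it was not well above background, and no fold is given because it would rest on untreated array 4 alone.

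**Figure D2:**
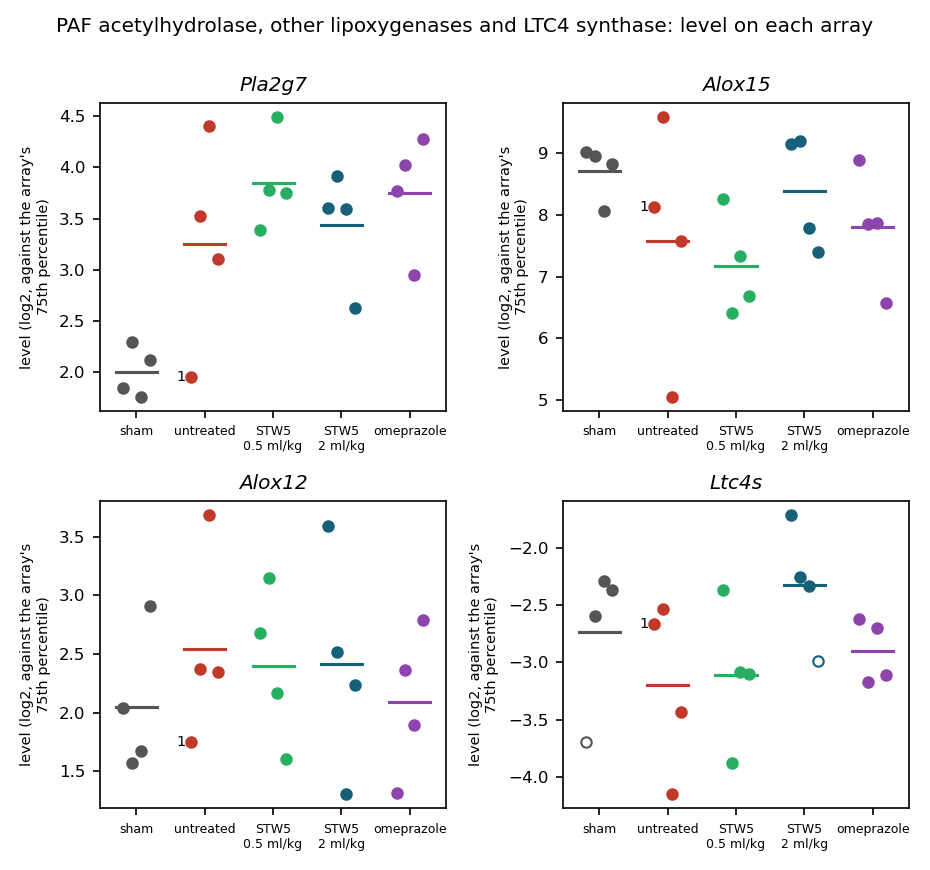
Levels of Pla2g7, Alox15, Alox12 and Ltc4s on each array (y axis, log2 against the array's 75th percentile) by group (x axis), with group means as horizontal lines, open points for arrays not well above background and "1" at untreated array 1. All treated arrays of Pla2g7 lie above all sham arrays, and the untreated arrays of Alox15 spread from 5.05 to 9.58.

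Untreated esophagitis was compared with sham to see what the induced disease changed in blood. Of the 8 members, 6 had a higher mean in untreated rats and 2, Ltc4s and Alox15, a lower one; scaling on spike-in controls turned Ltc4s to a higher mean (0.10). The median change of the members was 1.02, against -0.19 over all genes tested, and 38.2% of all genes had a higher mean. The 3 steps of leukotriene B4 synthesis had log2 changes of 1.61 ± 0.47 (SE) for Alox5, 1.31 ± 0.47 for Alox5ap and 0.92 ± 0.35 for Lta4h, that is 3.06-, 2.49- and 1.90-fold. The receptor Ltb4r lay at 1.12 ± 0.45 and Pla2g7 at 1.24 ± 0.42. The changes of Alox12 (0.49 ± 0.49), Ltc4s (-0.46 ± 0.40) and Alox15 (-1.14 ± 0.71) were each less than the half-width of their 95% interval.

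No member passed an adjusted p of 0.05 in this comparison in limma, where 0.00655% of all genes did; the adjusted p of the members ranged from 0.242 to 0.527. At an unadjusted p below 0.05 stood 5 members (Alox5, Alox5ap, Lta4h, Ltb4r and Pla2g7), all higher, against 8.22% of all genes in that direction. In 0 of 8 members did the groups lie apart with untreated rats higher, against 1.49% of all genes (1.64% with untreated rats lower). Background correction by normexp, which was run with an offset of 50 added to every signal, left 0.85 for Alox5 and 0.12 for Ltb4r. An offset of that size by itself shrinks the log2 changes of dim probes, and Alox5 signals in sham were 16.9 to 53.3. The part of the offset in these values was not tested. Without untreated array 1, 4 of 8 members passed: Alox5 (2.18 ± 0.38, limma adjusted p = 0.00483), Alox5ap (1.77 ± 0.43, adjusted p = 0.0214), Pla2g7 (1.67 ± 0.38, adjusted p = 0.0159) and Lta4h (1.16 ± 0.36, adjusted p = 0.0481). Because that array was picked for its likeness to sham, these calls describe the dependence on 1 array and are no separate test. The background rose as well, to 5.73% of all genes higher (1762 genes in either direction, against 1 with all arrays), and Alox5, Alox5ap and Pla2g7 then did not overlap with sham, as 9.76% of all genes did. Other untreated arrays carried single members. Without array 2 the change was 0.85 for Alox5ap and 0.58 for Ltb4r, and -1.80 for Alox15. Without array 3 it was -0.29 for Alox15, 0.11 for Alox12 and -0.14 for Ltc4s, and without array 4 that of Lta4h was 0.45. Alox12 lay at 0.76 without array 1.

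Omeprazole-treated rats were compared with sham in a comparison added after the data had been seen. Pla2g7 and Alox5 rose: Pla2g7 by 1.75 ± 0.42 (SE, 3.36-fold, limma adjusted p = 0.0161) and Alox5 by 1.66 ± 0.47 (3.15-fold, adjusted p = 0.0477). These 2 of 8 members compare with 4.73% of all genes that passed, 0.74% as higher. The means of 6 of 8 members were above sham, as were 42.2% of all genes. Alox5ap, at 1.48 ± 0.47, missed the threshold (limma adjusted p = 0.0804) but passed with quantile normalization (1.61, adjusted p = 0.0471) and with the percentile taken over probes detected on all arrays (1.60, adjusted p = 0.0432). The threshold was also missed by Lta4h at 0.64 ± 0.35, Ltb4r at 1.07 ± 0.45 and Alox15 at -0.92 ± 0.71. At an unadjusted p below 0.05 stood 4 members, Alox5, Alox5ap, Ltb4r and Pla2g7, all higher, against 5.26% of all genes. In 4 members, Alox5, Alox5ap, Lta4h and Pla2g7, every omeprazole array lay above every sham array, against 6.83% of all genes.

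Both calls lay near the threshold. Leaving out 1 array at a time kept the Alox5 change between 1.43 and 1.94, but its adjusted p rose above the threshold without any of the sham arrays 1 to 4 or the omeprazole arrays 1, 2 and 4 (up to 0.2002). The change of Pla2g7 stayed between 1.57 and 2.02 and lost its call without sham array 1 or 3 or omeprazole array 2 or 4 (adjusted p up to 0.0761). Background correction by normexp, with its offset of 50, also ended the Alox5 call (0.80, limma adjusted p = 0.147). Such an offset shrinks changes of dim probes. The monocyte markers (adjusted p = 0.0625) and the erythroid markers (adjusted p = 0.0636) as a covariate ended the Alox5 call as well. Neutrophil markers as a covariate ended both calls.

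STW5 was compared with sham in the same way. In 6 of 8 members the mean was above sham at either dose, as in 37.4% of all genes at 0.5 ml/kg and 53.3% at 2 ml/kg. At 0.5 ml/kg the log2 changes were 1.85 ± 0.42 (SE) for Pla2g7, 1.55 ± 0.47 for Alox5, 1.49 ± 0.47 for Alox5ap and 0.78 ± 0.35 for Lta4h, and every array of that dose lay above every sham array in these 4 members, against 5.87% of all genes. No member passed in limma (adjusted p from 0.2399 to 0.747, 0% of all genes passing), while 5 had an unadjusted p below 0.05, among them Alox15 at -1.55 ± 0.71; 11.6% of all genes did so in either direction. At 2 ml/kg the changes were smaller for Alox5 (0.90 ± 0.47) and Alox5ap (0.68 ± 0.47), and Pla2g7 lay at 1.43 ± 0.42. Pla2g7 alone did not overlap with sham at this dose, against 4.37% of all genes, and alone had an unadjusted p below 0.05, against 12.4%. No member passed there either (limma adjusted p from 0.202 to 0.986, 0% of all genes passing).

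**Figure D3:**
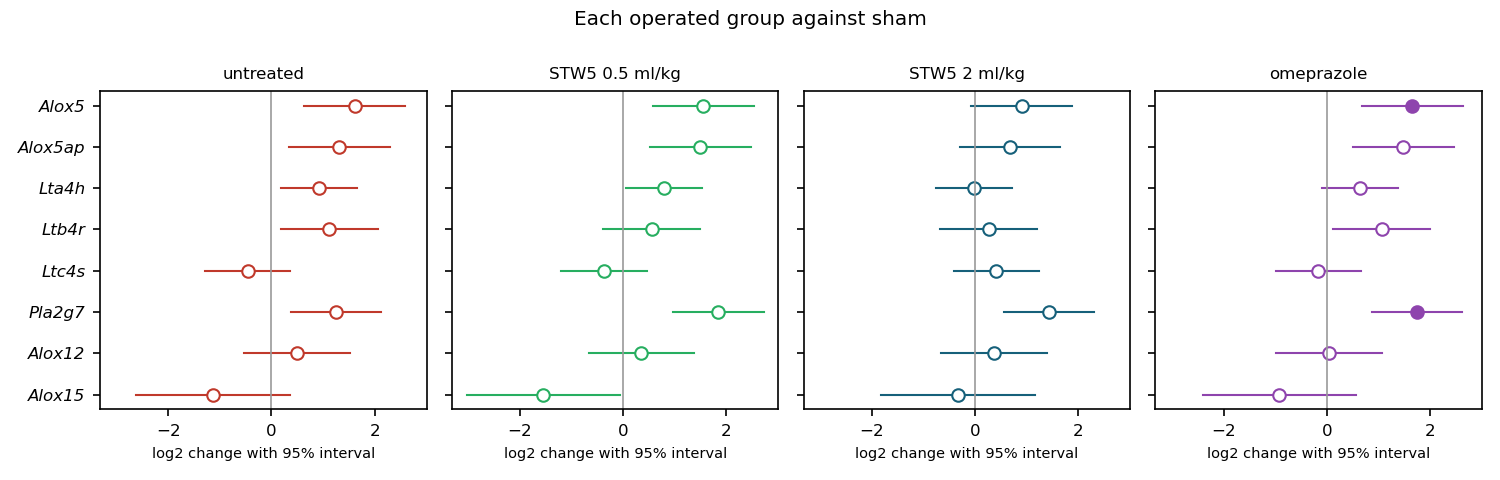
Log2 change of 8 members in each operated group against sham (x axis, points) with 95% confidence intervals (lines); filled points passed an adjusted p of 0.05. Alox5, Alox5ap and Pla2g7 lie to the right of 0 in all 4 panels, Alox15 lies to the left, and the filled points are Alox5 and Pla2g7 under omeprazole.

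Treated rats were compared with untreated rats to see whether treatment moved the pathway away from its level in untreated disease. Under omeprazole, 637 genes or 4.17% of all tested passed, and no member did (limma, adjusted p from 0.567 to 0.972). The members' changes lay between -0.45 ± 0.49 (SE) for Alox12 and 0.51 ± 0.42 for Pla2g7, no unadjusted p was below 0.05 (15.5% of all genes), and no member lay apart from untreated rats (2.31% of all genes higher, 4.95% lower). Without untreated array 1 the change of Pla2g7 was 0.07 and that of Alox12 -0.71; without untreated array 3 they were 0.89 and -0.07. The 95% interval of the Alox5 difference, without adjustment for the number of genes, ran from -0.94 to 1.03 with 4 arrays a group. It thus held differences of either sign. Which size of difference would have passed the adjusted threshold was not tested. Under STW5 at 0.5 ml/kg the changes lay between -0.57 ± 0.45 for Ltb4r and 0.60 ± 0.42 for Pla2g7. No member passed (limma adjusted p from 0.989 to 0.9995, 0% of all genes passing), and none had an unadjusted p below 0.05 (5.94%). Pla2g7 lay at 0.17 without untreated array 1 and at 0.99 without array 3, and Ltb4r at -0.03 without array 2 and -0.87 without array 4.

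Under STW5 at 2 ml/kg the leukotriene B4 genes had lower means than in untreated rats and Ltc4s a higher one; 5 of 8 members were lower, while 59.8% of all genes were higher. No member lay apart from untreated rats (3.34% of all genes higher, 0.773% lower). Lta4h lay at -0.95 ± 0.35 (SE) and Ltc4s at 0.88 ± 0.40. These 2 had an unadjusted p below 0.05, as did 23.5% of all genes, and no member passed in limma (adjusted p from 0.129 to 0.905, 0% of all genes passing). Before scaling, the mean Ltc4s signal was 21.1 at 2 ml/kg and 20.9 in untreated blood, so its change depends on the scaling. At that dose 3 of 4 arrays had Ltc4s well above background. Scaling on spike-in controls turned Ltc4s to -0.14 and brought 4 members past the threshold, among them Lta4h at -1.96. With that scaling 3672 of 15260 genes passed, 7 of them as higher, and the median gene lay at -0.87. With all arrays Alox5 lay at -0.71 ± 0.47 (limma adjusted p = 0.373). Without untreated array 1, Alox5 (-1.27 ± 0.38, limma adjusted p = 0.0282) and Lta4h (-1.18 ± 0.36, adjusted p = 0.0309) passed as lower, as did 3.6% of all genes. Without untreated array 4 the Lta4h change was -0.47, and without array 3 that of Ltc4s was 0.56.

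The STW5 doses were then set against each other. Lta4h was the member whose arrays lay apart: all 4 arrays at 2 ml/kg were below all 4 at 0.5 ml/kg, as in 3.82% of all genes (7.35% were apart the other way), with a change of -0.81 ± 0.35 (SE, limma adjusted p = 0.161). Alox5ap lay at -0.82 ± 0.47 and Alox15 at 1.21 ± 0.71 between 2 and 0.5 ml/kg. No member passed (limma adjusted p from 0.161 to 0.990, 0% of all genes passing), and Lta4h alone had an unadjusted p below 0.05 (26.6% of all genes). Scaling on spike-in controls moved the median gene from 0.18 to -1.09 and turned Alox15 to -0.05. It brought 5 members past the threshold as lower, as it did 7769 of 15260 genes, with 0 passing as higher. The array titles and the series' design text number the dose groups in opposite order, and the deposited value table carries the doses the other way round, so the direction of every dose difference, and which dose each STW5 level and each change against sham or untreated rats belongs to, depends on which label is right; in that table Lta4h lay at 0.93, Alox5ap at 0.97 and Alox15 at -1.06.

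**Figure D4:**
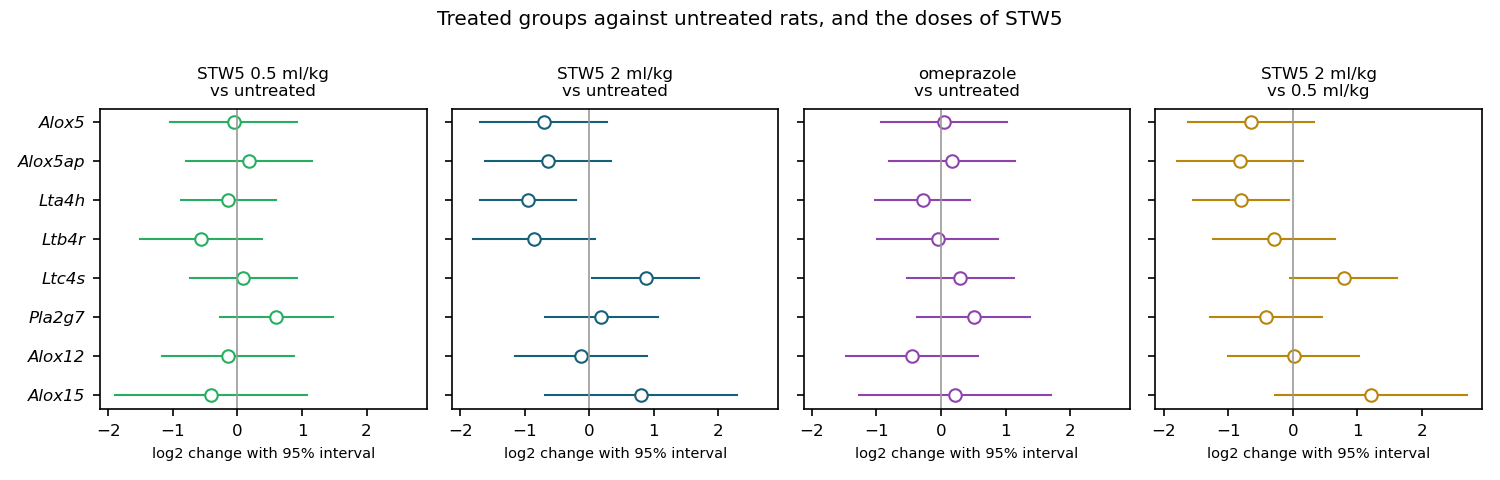
Log2 change of 8 members (x axis, points) with 95% confidence intervals (lines) for each treated group against untreated rats and, at the right, for STW5 at 2 against 0.5 ml/kg; no point is filled because none passed an adjusted p of 0.05. Under omeprazole all 8 intervals include 0. Lta4h lies to the left of 0 in every panel, and its interval excludes 0 only where the high STW5 dose is compared.

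Blood cell markers also differed between the groups. Of 13 neutrophil markers 12 were tested (Cxcr1 was not above background), and all 12 had higher means than sham in untreated blood, under STW5 at 0.5 ml/kg and under omeprazole, with median changes of 0.76, 1.31 and 1.26; at 2 ml/kg 11 of 12 did, with a median of 0.58. Of all genes, 38.2% had a higher mean than sham in untreated blood, 37.4% at 0.5 ml/kg, 42.2% under omeprazole and 53.3% at 2 ml/kg. Under omeprazole 3 of the 12 markers passed as higher, Cxcr2, Csf3r and Ncf4, against 0.74% of all genes. The summed level of the 12 markers, in multiples of the array's 75th percentile, was 60.1 to 137 in sham and 85.3 to 710 in untreated blood. It was 129 to 325 and 57.8 to 249.9 under the low and high STW5 dose and 136 to 249 under omeprazole. Untreated array 1 lay at -0.71 on the mean of these markers, within the sham range of -1.22 to -0.48. With that mean as a covariate, the omeprazole change fell from 1.66 to 0.62 for Alox5 (limma adjusted p = 0.483), from 1.48 to 0.18 for Alox5ap and from 1.75 to 1.05 for Pla2g7 (adjusted p = 0.274), and Ltb4r turned from 1.07 to -0.04. In untreated blood the same covariate left 0.89 for Alox5, 0.40 for Alox5ap and 0.75 for Pla2g7. The neutrophil mean, like the monocyte and erythroid means below, differed between groups and came from the same arrays. As a covariate such a mean takes up differences between groups whatever their origin. The part of cell makeup therefore cannot be read from these fits and was not tested.

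All 8 monocyte markers were tested, and 6 had higher means in untreated blood than in sham (median 1.20), 7 under omeprazole (median 0.31). Their summed level was 433 to 561 in sham, 304 to 606 in untreated blood and 481 to 831 under omeprazole. With the monocyte mean as a covariate the untreated changes were 0.54 for Alox5, 0.21 for Alox5ap and 0.18 for Lta4h.

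Erythroid markers went with Alox15. All 7 tested of 8 had lower means in untreated blood than in sham (median -1.15), and again under STW5 at 0.5 ml/kg (-1.02) and omeprazole (-0.53). Their summed level was 3484 to 5856 in sham and 1363 to 4506 in untreated blood. Untreated arrays 3 and 4, with erythroid means of -1.31 and -1.67, had the lowest Alox15 levels of their group, and arrays 1 and 2, at 0.54 and 0.46, the highest. With the erythroid mean as a covariate the Alox15 change in untreated blood was -0.01 and under STW5 at 0.5 ml/kg -0.55. Platelet markers, 7 of 10 tested, had median changes of 0.27 in untreated blood and 0.03 under omeprazole, beside Alox12. All 7 T cell and all 7 B cell markers tested had lower means in untreated blood than in sham, with medians of -1.32 and -0.67. Untreated array 2 lay lowest on the mean of these markers, at -2.76 for T cells and -2.05 for B cells. Array 1 lay within the sham range for both lists, and array 3 for B cells. Of the eosinophil markers 2 of 5 and of the basophil and mast cell markers 4 of 6 were tested, the defining genes Epx, Il5ra, Ms4a2 and Fcer1a not being well above background on more than 1 array.

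**Figure D5:**
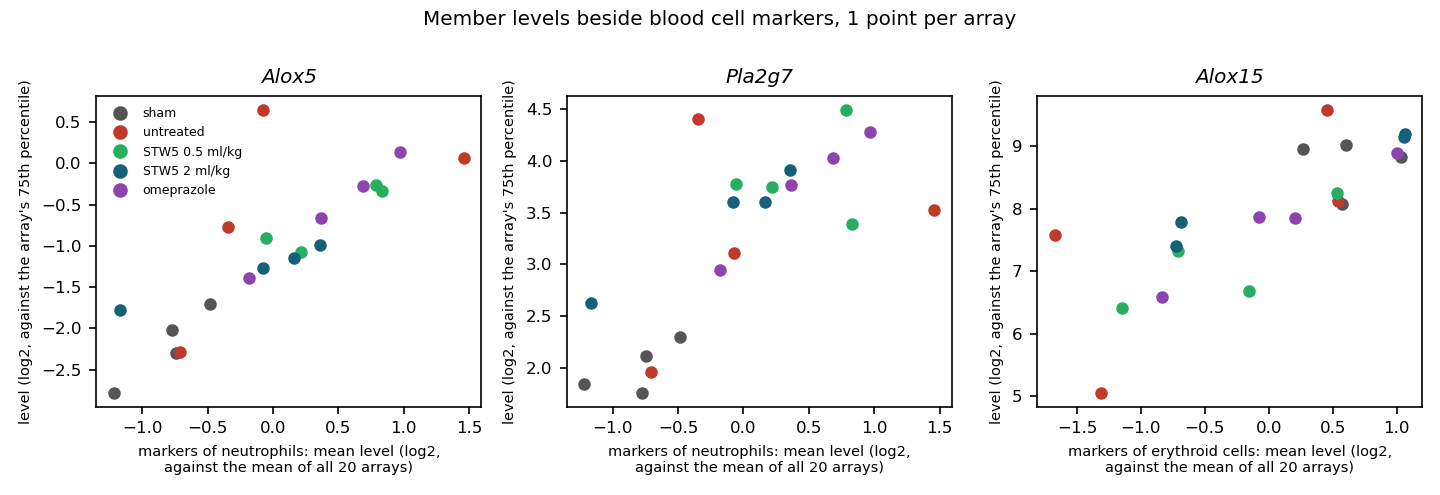
Level of Alox5, Pla2g7 and Alox15 on each array (y axis, log2 against the array's 75th percentile) beside the mean level of the neutrophil or erythroid markers on the same array (x axis, log2 against the mean of all 20 arrays), coloured by group. Sham arrays and untreated array 1 lie at the lower left for Alox5 and Pla2g7, and array 4 of STW5 at 2 ml/kg lies with them for Alox5. Untreated array 4 lies above the others at its neutrophil level for Alox5.

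The genes most like each member over the 20 arrays, among 10619 genes compared, were found from the correlation of levels after subtracting each array's median; the arrays share groups and blood cell makeup, and the values are a description. Alox5 ran with Upp1 (r = 0.95), Grn and Csf2ra, and Alox5ap with Lgals3 (0.990), Plekhb2 and Upp1. Alox5 and Alox5ap correlated at 0.916 with each other, Lta4h with Alox5 at 0.845, and Pla2g7 with Alox5ap at 0.816. Lta4h was nearest to Kifc3 (0.929), Tbxas1, the thromboxane synthase, and Npr1. Pla2g7 ran with Gk (0.963), with Ptafr (0.957), the receptor of the PAF that its product degrades, and with Cxcr2 (0.954), a neutrophil chemokine receptor. Ltb4r was nearest to Hp (0.882), Lbp and Il1r2.

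The remaining members had other neighbours. Alox12 was nearest to Ptgs1 (0.891), the cyclooxygenase of platelets, Stau2 and Tspan9. Alox15 was nearest to C19h19orf53 (0.959), Ell2 and Fam89b, and among the members to Ltc4s (0.650), while it correlated at -0.268 with Alox5. Ltc4s was nearest to Cyp21a1 (0.882), Slc39a4 and Masp1.

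The wider pathway was described by 44 further genes for phospholipases, PAF receptor and acyltransferases, other lipoxygenases, leukotriene receptors, transporters and degrading enzymes. Of these, 41 were on the array and 27 were tested; the leukotriene receptors Ltb4r2, Cysltr1 and Cysltr2 were not well above background on any array. None of the 27 passed in any of the 8 comparisons in limma. Some genes named below were dim: Gpr31 was well above background on 6 arrays, Pla2g4b on 8, Ptgr1 on 14 and Ggt1 on 16. Their changes rest in part on signals near background. Against sham, 17 of 27 had higher means in untreated blood (median 0.35, 11 with an unadjusted p below 0.05, against 18.2% of all genes), led by Abcc4, which exports leukotrienes (0.99 ± 0.33), and Ggt1, which trims leukotriene C4 (1.47 ± 0.52), with Pla2g4b (-0.88 ± 0.35) and Gpx4 (-1.20 ± 0.48) leading the lower ones. Under omeprazole 17 of 27 were higher (median 0.12, 8 with an unadjusted p below 0.05, against 14.3%), led by Cyp4f18, which inactivates leukotriene B4 (1.22 ± 0.35, limma adjusted p = 0.0542), and Ptafr (1.45 ± 0.43, adjusted p = 0.0613), and the lower ones were led by Pla2g4b (-0.41 ± 0.35) and Mgst3 (-0.57 ± 0.51).

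The STW5 groups gave 14 of 27 higher at 0.5 ml/kg, led by Ptafr (1.52 ± 0.43) and Cyp4f18 (1.13 ± 0.35), with Pla2g4b (-1.18 ± 0.35) and Gpr31 (-1.20 ± 0.62) lower. At 2 ml/kg 19 of 27 were higher, led by Abcc4 (1.04 ± 0.33) and Ggt1 (1.45 ± 0.52), with Dpep2 (-1.0 ± 0.56) and Pla2g15 (-0.40 ± 0.31) lower. Abcc4 and Ggt1 thus had the smallest p among the higher genes in untreated blood and at the high STW5 dose. Ptafr and Cyp4f18 had it under omeprazole and at the low dose. This ranking does not set the groups apart, and the difference between these pairs of groups was not tested for the list. Ptafr lay at 2.09, 4.10, 4.50 and 3.53 in untreated blood, against 1.90 to 2.73 in sham. Ggt1 lay at -1.87, -1.54, -2.46 and -0.96 under omeprazole, against -3.81 to -2.75 in sham.

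Against untreated rats, Ggt5 (1.35 ± 0.47) and Gpx4 (1.22 ± 0.48) led the 17 of 27 higher genes under omeprazole, and Pla2g15 (-0.55 ± 0.31) and Pla2g12a (-0.60 ± 0.42) the lower ones. Under STW5 at 2 ml/kg the lipoxygenases of skin, Alox12b (1.19 ± 0.35) and Aloxe3 (1.29 ± 0.43), led the 13 higher genes, and Pla2g15 (-1.08 ± 0.31) and Mapkapk3 (-0.67 ± 0.27) the lower ones. At 0.5 ml/kg 13 were higher, led by Ggt5 (0.77 ± 0.47) and Aloxe3 (0.59 ± 0.43), and Pla2g2d (-1.10 ± 0.40) and Pla2g6 (-0.55 ± 0.25) led the lower ones. Between the doses, 16 were higher at 2 ml/kg, led by Alox12b (1.10 ± 0.35) and Abcc1 (0.67 ± 0.24), and Mapkapk3 (-0.91 ± 0.27) and Ptgr1 (-1.30 ± 0.56) were lower.

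The 250 bases before the start of Alox5 are shown because human 5-lipoxygenase is known for GC boxes in this region; the capitals mark GGGCGG, the core of a GC box.
Alox5 promoter: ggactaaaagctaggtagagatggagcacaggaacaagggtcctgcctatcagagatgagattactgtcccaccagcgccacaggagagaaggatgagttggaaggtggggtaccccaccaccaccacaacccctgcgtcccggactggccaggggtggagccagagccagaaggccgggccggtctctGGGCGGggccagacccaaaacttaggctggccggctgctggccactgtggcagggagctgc
It is RefSeq sequence of build GRCr8, chr4:151251127-151251376 on the minus strand. Of the 9 members, 7 had a promoter in the RefSeq table, and 3 of the 7 (Alox5, Lta4h and Alox12) held GGGCGG on either strand, against 30.5% of 33469 rat promoters of the same length. Alox12 held 3 copies, and Pla2g7, Ltb4r, Ltc4s and Pla2g4a held none. A link between the motif and the levels in blood was not tested.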

How the data were processed

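RNA from rat whole blood was hybridised to 1-colour (Cy3) Agilent arrays, 1 per rat. The deposited scanner files hold spot intensity from Agilent Feature Extraction 10.7.3.1, background-subtracted and spatially detrended per the file headers, not normalized between arrays. A ratio, the processed signal over the array's median, fills the value table that the authors deposited; 12 columns follow their own scanner file and the 8 STW5 columns that of the other dose. The titles were followed. Quality annotations (spot flags) came with the deposited files.

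Log2 intensity was averaged over a probe's unflagged spots, and log2 of each array's 75th percentile (71.3 to 308) was subtracted to give the level. A gene entered with its brightest probe among those that 4 or more arrays showed well above background. The model, in limma 3.58.1 (R 4.3.3), had 5 group means over all 20 arrays (15 residual degrees of freedom) and checked on simulated data. Files were read in R with data.table, version 1.17.8. Tests were two-sided, with Benjamini-Hochberg adjustment over 15260 genes and a threshold of 0.05. Depth does not apply; the number of arrays limits the precision.

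Members and gene lists were chosen with earlier results of these data known. Named were the members, from the other pathway genes, for each direction, those that passed or else the 2 of smallest p, and the 3 genes most correlated with each member. The 3 comparisons of treated rats with sham were added after seeing the data. The design text gives 4 animals a group, so p-values measure the spread between rats. Alternatives covered background correction (normexp with an offset of 50), scaling, spot flags, probe choice, filters, the value table, the replicate block, exchanged doses, marker covariates and leaving out each array.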

Additional observations from a re-analysis of the deposited data

Results flagged for a closer look

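Of 45 sets of 4 arrays (9 members in 5 groups), 3 held an array whose gap to its nearest neighbour took up most of the range; by Dixon's test chance gives about 1 such set in 20. Array 4 of STW5 at 2 ml/kg stood apart for Alox5ap, at 0.26 against 1.42 to 1.56 on the other arrays of that dose, and for Pla2g4a, at -4.79, where no array of the group had the probe well above background. The same array had the lowest mean of the neutrophil markers in its group (-1.17). Array 4 of STW5 at 0.5 ml/kg stood apart for Ltb4r, at -3.38 against -2.61 to -2.46. The part of cell makeup in these values was not tested.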

How the results depend on the processing

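Of 35 alternatives, 20 left out 1 array and 15 changed another choice; slide as a random block was not run, because the 5 group means already fix the 3 slides. Members passing between omeprazole and sham numbered 2, beside 722 of all 15260 genes. The count was 1 with normexp (550 genes), without the filter on dim probes (517 of 26316), and with monocyte (575) or erythroid markers (967) as a covariate. It was 0 with neutrophil markers (477 genes) and 4 from only the arrays of both groups (1477 genes). It was 3 with quantile normalization (763 genes) and with the percentile over probes detected on all arrays (758 genes). Leaving out 1 array gave 0 to 2 members there (433 to 736 genes). It gave 0 to 4 members in untreated against sham (0 to 1762 genes) and 0 to 2 in STW5 at 2 ml/kg against untreated (0 to 3012 genes). Spike-in scaling gave 4 members in that last comparison and 5 between the doses, normexp gave 1 between the doses, and only the arrays of both groups gave 1 for STW5 at 0.5 ml/kg against sham. Signs turned with spike-in scaling for Ltc4s (0.10 in untreated against sham, -0.14 in STW5 at 2 ml/kg against untreated) and Alox15 between the doses (-0.053). In the authors' value table they turned for Lta4h (0.93), Alox5ap (0.97) and Alox15 (-1.06) between the doses and Lta4h at 0.5 ml/kg against sham (-0.033). With covariates they turned for Ltb4r under omeprazole (-0.039, neutrophils) and Ltc4s in untreated rats (0.078, erythroid cells). The cause was not tested, except that the value table carries the STW5 doses the other way round.

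All genes passing between untreated rats and sham numbered 1, and 0 to 1762 with 1 array left out. Between the doses 0 passed, but 529 with the replicate block, 2342 with normexp, 157 with probes above background on all arrays, 5394 with no filter, 79 in the value table, 7769 with spike-in scaling, 806 without array 3 at 2 ml/kg, and 227 and 144 without arrays 1 and 4 at 0.5 ml/kg. For STW5 at 2 ml/kg against untreated rats they numbered 0, with 37 under the block, 3672 under spike-in scaling, 3012 without untreated array 1 and 1036 without array 3 of that dose. Against sham, STW5 at 2 ml/kg had 818 with erythroid markers as a covariate and STW5 at 0.5 ml/kg 40 from only its own and the sham arrays. What limits Ltb4r, Ltc4s and Pla2g4a is a signal near background. For omeprazole they numbered 637 against untreated rats (365 to 1142) and 722 against sham (355 to 1477). Spike-in scaling moved the median gene from -0.19 to 0.37 (untreated against sham), from 0.14 to -0.87 (STW5 at 2 ml/kg against untreated) , from -0.08 to 0.56 (omeprazole against sham), from -0.15 to 0.66 (STW5 at 0.5 ml/kg against sham) and from 0.04 to -0.41 (STW5 at 2 ml/kg against sham). Of the omeprazole calls against sham 15.7% were higher, 38.3% with that scaling, 31.8% from only the arrays of both groups, 25.7% with the percentile over probes detected on all arrays, 2.31% with neutrophil markers as a covariate and 1.15% to 23.1% with 1 array left out.

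The fit with the replicate number as a block changed no member's call: 0 members passed in untreated against sham (Alox5 adjusted p = 0.128) and 2 between omeprazole and sham (Alox5 0.0445, Pla2g7 0.0162). Samples of the same number correlated at -0.44 to 0.58 in their deviations from group means and matched their own number best in 6 of 20 cases, so the numbers were not taken to pair rats.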
